A study of Mus musculus with 4 samples.

Results

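Cxcr4, Ackr3, Cxcr2, Cxcr1 and Ackr1 are chemokine receptor genes of mouse chromosome 1, and they were taken by symbol as 5 of the 4167 genes in the values analysed here. Of 24 mouse chemokine receptor genes listed, 15 lie on chromosome 9 and 5 on chromosome 1, so these 5 are the receptors of that list that the values cover. The RNA came from long-term haematopoietic stem cells (LT-HSCs), rare self-renewing marrow cells from which every blood lineage descends. They were sorted by flow cytometry from tibia and femur marrow of wild-type mice (WT) or of conditional knockouts (ATF4 KO) for Atf4, a transcription factor of the integrated stress response. Each genotype had 2 libraries of polyadenylated RNA, made by a modified Smart-seq2 protocol, which copies whole transcripts from very little input. The labels give neither the Cre line, the age and the surface markers of the sort, nor whether the libraries came from separate animals, so p-values measure the spread between these libraries, which may be technical. Atf4 itself is not among the genes analysed here, so its level could not serve as a check of the labels.

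Chemokine receptors are G protein-coupled receptors that steer cells along gradients of small secreted proteins. CXCR4, the receptor of CXCL12, holds haematopoietic stem cells in the marrow and guides them back to it after transplantation. ACKR3 binds the same ligand but signals through arrestins and clears CXCL12 from the surroundings. CXCR2 and CXCR1 bind the neutrophil-attracting CXC chemokines and are best known on neutrophils, which leave the marrow through CXCR2. ACKR1, the Duffy antigen, binds many chemokines without G protein signalling and is known on erythroid cells and venular endothelium.

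At the end of the third transmembrane helix, receptors of this class that couple to G proteins carry an aspartate-arginine-tyrosine motif. Its codons are shown because they are a feature by which the 5 genes can be compared at the sequence level. An in-frame match to GANCGNTAN was found in 4 of the 5 coding sequences of GENCODE M21 and in 8.24% of the 1444 coding sequences searched. The 27 bases from the match are given below, 5′ to 3′ on the coding strand, with the matched codons in capitals.
Cxcr4: GACCGGTACctcgctattgtccacgcc
Ackr3: GACCGCTATctctccatcacctacttc
Cxcr2: GACCGCTACctggccattgtacatgcc
Cxcr1: GACCGATACctggccatcgtccatgcc
The match began at coding base 403 in Cxcr4, 421 in Ackr3, 424 in Cxcr2 and 415 in Cxcr1. The Ackr1 coding sequence, of 1005 bases, held no match, which says only that these letters are not in frame there. Cxcr1 and Cxcr2 were 71.2% identical over their aligned coding bases, while every other pair of the 5 was between 51.2% and 59.6% identical. The longest run shared by the transcripts of Cxcr1 and Cxcr2 was 14 bases, and the longest for any pair was 16 bases.

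On GRCm38, Cxcr2 (ENSMUSG00000026180.8) lies at chr1:74153989-74161246 on the plus strand and Cxcr1 (ENSMUSG00000048480.5) at chr1:74191785-74194631 on the minus strand, 30.5 kb further along. Ackr3 (ENSMUSG00000044337.5) lies at chr1:90203980-90216751 on the plus strand. Cxcr4 (ENSMUSG00000045382.6) lies at chr1:128588199-128592293 on the minus strand. Ackr1 (ENSMUSG00000037872.5) lies at chr1:173331886-173333750 on the minus strand, inside the span of Cadm3 on the same strand, with which it shares 361 exon bases. How reads in those shared bases were assigned is not given in the sources used here, so the Ackr1 value carries that uncertainty. Cadm3 itself had 4 reads in WT 1 and 11 in WT 2. In the RefSeq promoter windows of GRCm38.p6, which span the gene start, 2 elements were searched on both strands. TGATGNAA, the composite element of ATF4 and C/EBP proteins, was in 3.97% of the 32851 windows, and the cyclic AMP response element TGACGTCA in 1.79%. The windows of the 5 receptor genes held 0 matches to either, which says nothing of binding.

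The deposited values are log2 expression, and they matched a regularized logarithm to within 2.0e-08 for the 1399 genes without a knockout read. Such a transform pulls each library towards the gene's mean, and it can be inverted to the whole reads behind each value. Reads were recovered for 1818 of 1928 genes with values, the 5 receptors included. Over those genes the reads came to 785865 in WT 1 and 635780 in WT 2, but to 1019 in ATF4 KO 1 and 1550 in ATF4 KO 2. The ATF4 KO size factors, which scale for depth, were 0.165% and 0.171% of that of WT 1. Genotype and depth therefore cannot be told apart in these libraries, and each receptor is given first by its reads.

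Cxcr4 had 35 reads in WT 1, 60 in WT 2 and 0 in both ATF4 KO libraries. Its deposited log2 values were 1.80 and 1.89 in WT and 1.94 and 1.93 in ATF4 KO. Both knockout libraries thus stood above both WT libraries on the deposited scale, with no read of the gene in either. Cxcr2 was the receptor with the most reads, 133 in WT 1 and 160 in WT 2, and it too had 0 in both ATF4 KO libraries. Its log2 values were 2.64 and 2.91 in WT against 2.54 and 2.52 in ATF4 KO, so here the knockout libraries stood below both WT libraries. Ackr1 had 66 reads in WT 1, 43 in WT 2 and 0 in both ATF4 KO libraries. Its log2 values of 1.89 and 1.86 in WT lay below the 1.97 of both knockout libraries. Cxcr1 was at 0, 3, 0 and 0 reads in the order WT 1, WT 2, ATF4 KO 1 and ATF4 KO 2, with a log2 value of 0.34 in each library. Those values were shared by 17 genes, all with the same 0 and 3 WT reads. Ackr3 had 0 reads and a log2 value of 0 in all 4 libraries. No read of any of the 5 receptors was thus found in ATF4 KO.

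**Figure D1:**
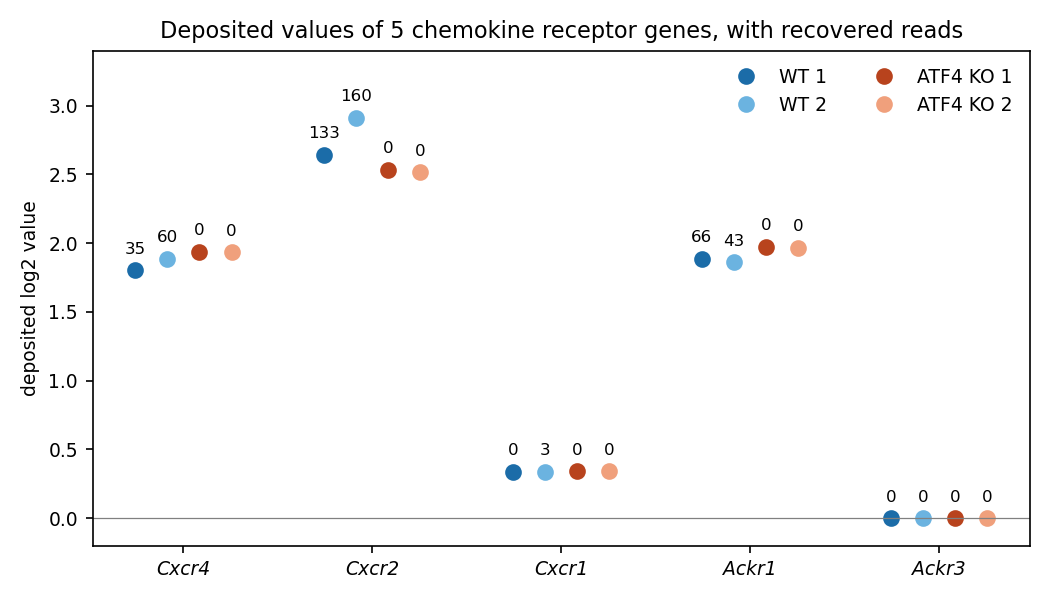
Deposited log2 values (vertical axis) of the 5 receptor genes in the 4 libraries, 1 point per library and no error bars, with the recovered reads above each point. ATF4 KO points of Cxcr4 and Ackr1 lie above WT and those of Cxcr2 below, each at 0 reads.

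WT levels are given as reads divided by the size factor and by kb of merged exons, so that genes of different length can be compared. Cxcr2 stood at 2.53 ± 0.743 (SD, n = 2) normalised reads per kb, with 2.01 in WT 1 and 3.06 in WT 2. Ackr1 stood at 1.97 ± 0.268 (SD, n = 2), with 2.16 and 1.78 per kb. Cxcr4 stood at 1.41 ± 0.738 (SD, n = 2), with 0.891 and 1.93 per kb. These 3 receptors lay near the middle of the WT range, since the median of the 1027 protein-coding genes with a WT read was 1.67 per kb. Cxcr2 exceeded 56.2% of those genes, Ackr1 52.1% and Cxcr4 46.7%. Cxcr1 was far lower at 0.0586 ± 0.0829 (SD, n = 2) per kb, above 16.9% of them. For Ackr3, 0 reads allow a level of up to 0.0230 per kb, taking 3 reads over both WT libraries as the limit of a count of 0.

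The order by mean was Cxcr2, Ackr1, Cxcr4, Cxcr1 and Ackr3, but neighbours at the top changed places between the libraries. The per-kb ratio of Cxcr2 to Ackr1 was 0.929 in WT 1 and 1.72 in WT 2. That of Ackr1 to Cxcr4 was 2.43 in WT 1 and 0.922 in WT 2. Neither neighbouring pair therefore differed beyond the spread of the WT libraries. Cxcr2 was above Cxcr4 in both, by 2.25-fold in WT 1 and 1.58-fold in WT 2. The upper 3 receptors were above Cxcr1 in both libraries, and in WT 2, where Cxcr1 had reads, they were 15.2- to 26.1-fold above it. The exact 95% Poisson intervals of the pooled WT levels per kb ran from 2.198 to 2.773 for Cxcr2, from 1.64 to 2.41 for Ackr1, from 1.09 to 1.65 for Cxcr4 and from 0.0107 to 0.151 for Cxcr1. They cover counting error only, since the reads carry no molecular identifiers.

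**Figure D2:**
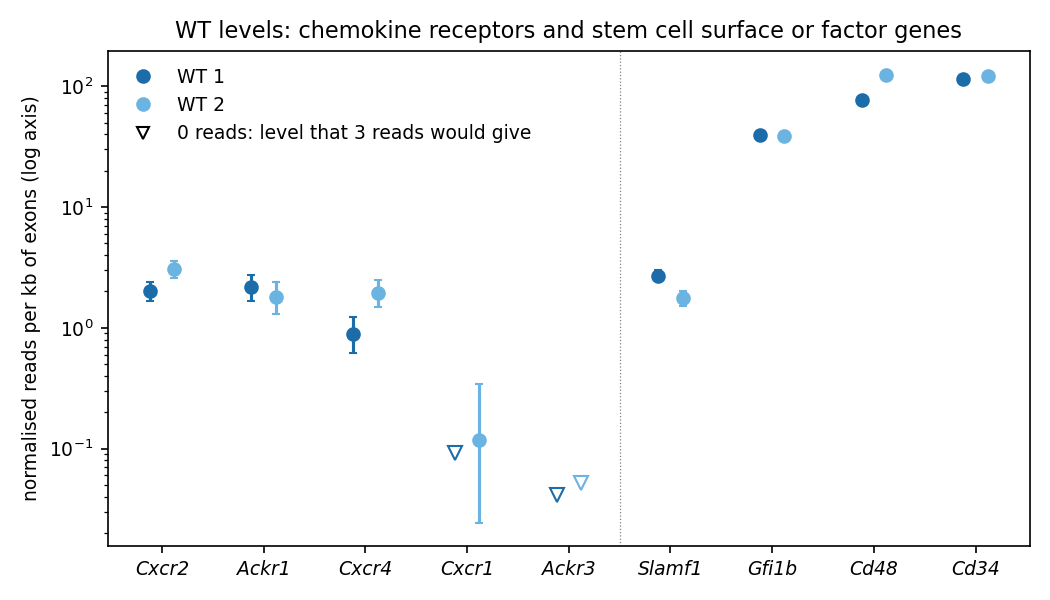
Normalised WT reads per kb of exons (log axis) of the 5 receptor genes and of 4 genes listed as LT-HSC markers, 1 point per WT library with its exact 95% Poisson interval. Cxcr2, Ackr1 and Cxcr4 lie between 0.891 and 3.06 per kb, near Slamf1, and triangles mark the level that 3 reads would give where a library had 0.

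Between the WT libraries, the normalised level of Cxcr4 was 2.17-fold higher in WT 2 than in WT 1 (exact 95% interval 1.41 to 3.39). That fold was larger than in 89.9% of the 276 genes with 50 to 300 reads over both WT libraries, whose median fold was 1.31. Cxcr2 was 1.52-fold higher in WT 2 (1.20 to 1.93), a fold larger than in 70.7% of those genes. For Ackr1 the ratio was 0.825 (0.548 to 1.23), which counting error alone covers. Cxcr4 and Cxcr2 thus varied between replicates by more than counting error. Such an excess was common among the 276 genes, whose squared deviation averaged 5.37 times the counting variance (median 2.30). A fold of 2.76, above that of either receptor, was exceeded by 5% of them.

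Beside genes listed as LT-HSC markers, Cxcr2, Ackr1 and Cxcr4 lay near Slamf1 and far below Cd34, Cd48 and Gfi1b in WT. Slamf1, the CD150 antigen used to sort LT-HSCs, had 362 and 186 WT reads and a mean of 2.23 normalised reads per kb. That was 1.58 times the mean of Cxcr4, but the order changed between the libraries. Slamf1 was above Cxcr4 in WT 1 (2.71 against 0.891 per kb) and below it in WT 2 (1.76 against 1.93). Cd34, encoding a sialomucin that LT-HSCs carry at low levels, stood at 119 per kb. Cd48, encoding a SLAM family protein that LT-HSCs lack, stood at 99.9 per kb, or 44.7 times the level of Slamf1. Gfi1b, a transcription factor of stem and megakaryocyte-erythroid cells, stood at 39.4 per kb. The WT RNA thus held the LT-HSC marker Slamf1 together with high Cd48, whose protein is absent from LT-HSCs. In ATF4 KO, Slamf1 and Gfi1b had 0 reads, Cd34 had 9 and 8, and Cd48 had 2 in each library.

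Markers of the cell types that are known for these receptors were present at unequal levels. Of 22 neutrophil and monocyte genes listed, 8 were in the values, Cxcr2 and Cxcr1 among them, and the 6 with known reads summed to 60.7 normalised reads in WT 1 and 79.0 in WT 2. Both sums hold Cxcr2 itself, with 6.12 and 9.33 normalised reads, and the sum was higher in WT 2, as was Cxcr2. The larger share came from Fcgr3, a low-affinity Fc receptor of myeloid cells, with 627 and 665 WT reads, and from Fcgr2b with 456 and 468. Fcgr4, a further Fc receptor of neutrophils and monocytes, had 37 and 30 WT reads. Fcer1g, the common gamma chain of Fc receptors, of unknown read number, had a log2 value of 10.89 in both WT libraries. In ATF4 KO it stood at 14.31 and 13.73, and it did not pass the test (limma, adjusted p = 0.056). The part of myeloid cells or of myeloid transcripts of progenitors in the Cxcr2 level was not tested.

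For Ackr1 and Ackr3, markers of endothelial and stromal cells were read. Among 6 endothelial genes in the values, which include both receptors, the selectin gene Sele had 11 and 17 WT reads, Prox1 had 0 and 1, and Ackr3 had 0. Selp, shared with platelets, had 1533 and 1059, and Egfl7, which stem cells also express, had 2131 and 1789. Of 7 stromal genes in the values, Col3a1, Col5a2, Prrx1, Fmod and Ackr3 were at 0 in all 4 libraries, and the list summed to 1.34 and 1.17 normalised WT reads. The 2 others were not at 0. Fn1, the fibronectin gene, had 16 and 10 WT reads, and Prelp, a matrix proteoglycan gene, had 13 and 10 WT reads and 40 in ATF4 KO 1. The 7 T and NK cell genes in the values summed to 19.4 and 10.4 normalised WT reads, the 3 B cell genes to 3.36 and 1.52, and 2 megakaryocyte genes of known reads to 96.9 and 106. As in any bulk sample, fewer cells of a type and less RNA per cell cannot be told apart.

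The comparison of the genotypes was made with limma on the deposited log2 values of 1199 genes that reached 1 in at least 2 libraries. At an adjusted p under 0.05, 24.6% of the tested genes were called higher and 22.4% lower in ATF4 KO, 47.0% in all. Of the receptors 3 were tested, and 1 was called higher and 0 lower, a share that is close to this background. Ackr1 was the one called, with a difference of 0.10 ± 0.01 (SE) on the log2 scale and an adjusted p of 0.0129. Both knockout values were above both WT values, but both rest on 0 reads. Cxcr4 differed by nearly the same amount, 0.09 ± 0.03 (SE), without passing (adjusted p = 0.137). Cxcr2 differed by -0.25 ± 0.12 (SE) and did not pass (adjusted p = 0.187). Cxcr1 and Ackr3 were below the level needed for a test. The call for Ackr1 was lost without either ATF4 KO library (adjusted p = 0.0660 without ATF4 KO 1 and 0.0606 without ATF4 KO 2). Without either WT library all 3 receptors passed, but the spread within a genotype then came from the 2 knockout values alone, which the transform sets at 0 reads (SD of 0.0035 to 0.013), so these passes say nothing of stability.

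The direction of these differences followed the WT level of the gene. Among the 677 tested genes without a knockout read, 353 had a positive difference and 324 a negative one. All 111 of those with a WT mean between 1.5 and 2 on the log2 scale, where Cxcr4 and Ackr1 lie, had a positive difference, and 91 were called higher. All 53 with a WT mean between 2.5 and 3, where Cxcr2 lies, had a negative difference, and 21 were called lower. The largest rise called among genes with 0 knockout reads was 0.10. Over all tested genes, 283 of 295 called higher and 257 of 268 called lower had no knockout read. Ackr1 shared its values in all 4 libraries, to every deposited digit, with Lefty1, a gene of left-right patterning with the same 66 and 43 WT reads. A difference on this scale is thus fixed by the WT reads for such genes, Ackr1 included, and it does not show a higher transcript level.

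**Figure D3:**
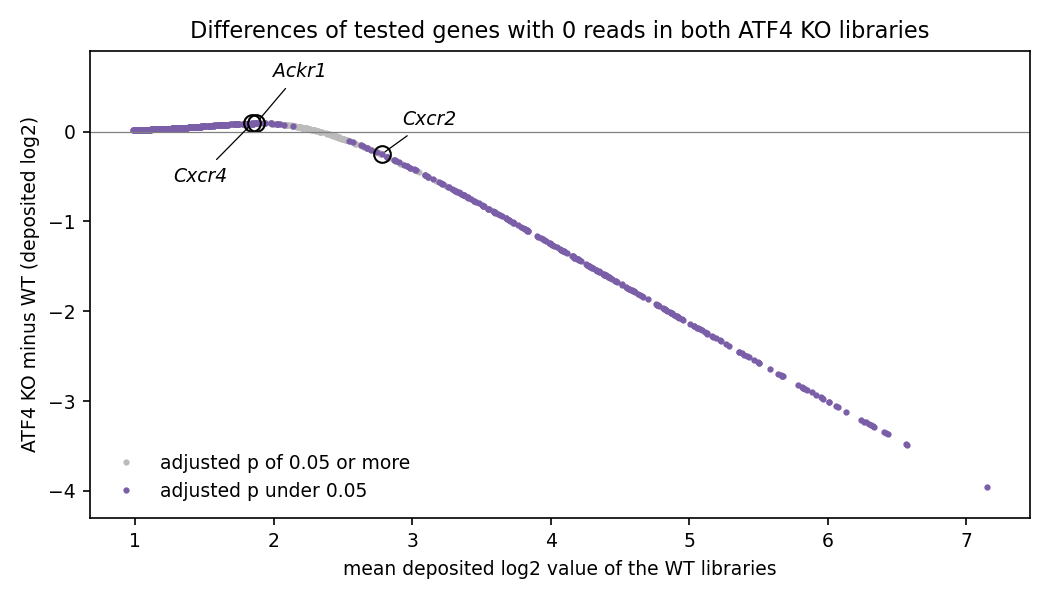
Difference of ATF4 KO minus WT against the mean WT value, both on the deposited log2 scale, for the 677 tested genes without a knockout read, 1 point per gene. The points form 1 narrow curve, positive below a WT mean of 2 and negative above 2.5, and circles mark Cxcr4, Ackr1 and Cxcr2 on it.

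The depth decides what could have been seen. At the WT level and the knockout size factors, 0.565 reads of Cxcr2 were expected over both knockout libraries together. The number was 0.203 for Ackr1, 0.187 for Cxcr4 and 0.00639 for Cxcr1, or 0.961 over the receptors together. Taking 3 reads over the pair as the limit of a count of 0, the knockout level could lie up to 5.31-fold above WT for Cxcr2. The limit was 14.8-fold above WT for Ackr1, 16.1-fold for Cxcr4 and 469-fold for Cxcr1. Without WT 2 the limit for Cxcr4 rose to 25.5-fold. A fall to 0 and an unchanged level give the same 0 reads here, so neither loss nor gain of a receptor transcript below these limits was detectable at this depth. A gene needed a normalised WT level of 41.0, about 891 reads in WT 1, for 3 knockout reads to be expected. Of the 1089 tested genes with known reads 246 reached that, or 22.6%, and 0 of the 5 receptors did.

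Knockout reads were also less evenly spread over genes than counting error gives. Over 397 genes with WT log2 values between 3 and 6, 789 knockout reads were found and 845 were expected. A further 16 genes of that range have no recovered reads and are left out of both numbers. Each of them has a knockout read, so both totals over the whole range are higher by an unknown amount. They fell on few genes, and 226 of the 397 had 0 reads, where counting error alone gives 76.2. The 10 leading genes held 62.1% of the recovered reads. The limits above cover counting error only and leave this clustering out.

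**Figure D4:**
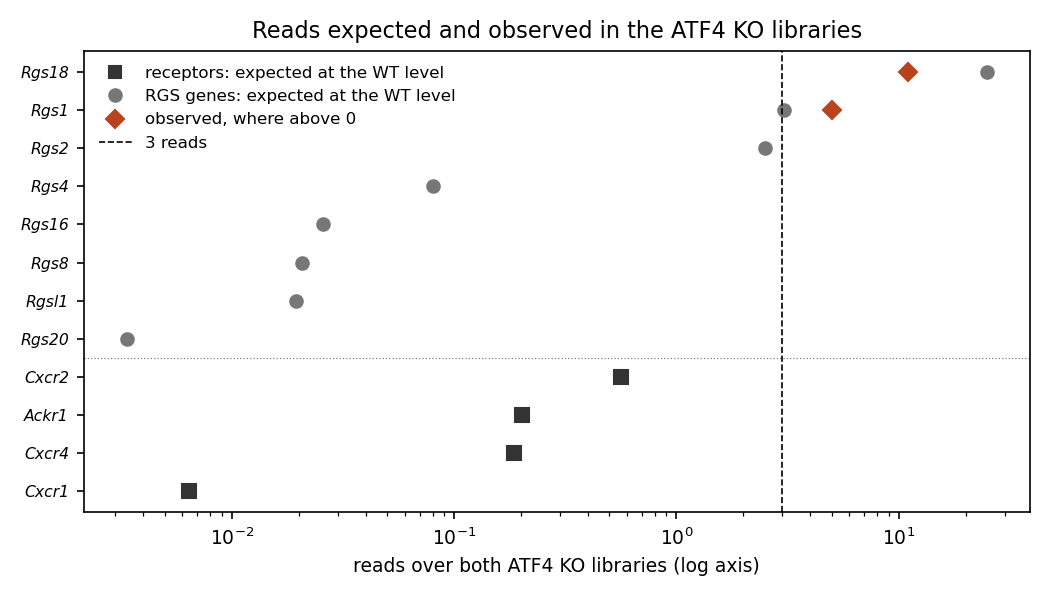
Reads expected at the WT level over both ATF4 KO libraries (log axis) for the receptors with WT reads (squares) and for the RGS genes of the signalling list with WT reads (circles), with observed reads above 0 as diamonds. The receptors lie at 0.565 or below, left of the dashed line at 3 reads, and Rgs18 lies farthest right with 24.9 expected and 11 observed.

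Genes that act with the receptors were taken from lists of their ligands, their signalling and homing adhesion. Of 36 chemokine genes listed, 2 were in the values. Xcl1, encoding a lymphocyte chemokine, had 32 and 16 WT reads and 0 knockout reads, and was called higher with a difference of 0.06 (limma, adjusted p = 0.0046). Ccl20, the ligand of CCR6, had 0 reads in all 4 libraries.

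Of 60 signalling genes listed, 21 were in the values and 15 were tested. Of these, 3 were called higher and 2 lower, against 24.6% and 22.4% of all tested genes, with a median difference of -0.07 against 0.02 over all tested genes. Those called higher included Rgs4, which speeds the switching-off of G proteins, and the exchange factor gene Farp2, with differences of 0.05 and 0.06. The lower calls were Rgs2, a further RGS gene, with a difference of -2.06, and Srgap2, a Rac-regulating gene, with -1.47. Every one of the 5 called was at 0 reads in ATF4 KO, Rgs2 against 746 and 586 in WT and Srgap2 against 485 and 367. The reads expected were 2.504 for Rgs2 and 1.598 for Srgap2, so both stayed below the level at which 3 are expected. Rgs18, the RGS gene of platelets and stem cells with 167.5 normalised WT reads per kb, had 7436, 5802, 6 and 5 reads in the order WT 1, WT 2, ATF4 KO 1 and ATF4 KO 2. It was 118.6 times the level of Cxcr4 per kb in WT, and its 11 knockout reads stood against 24.9 expected without passing the test (limma, adjusted p = 0.251).

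Of 31 adhesion genes listed, 7 were in the values and 6 were tested, with 1 called higher and 0 lower, where 24.6% and 22.4% of all tested genes were. Their median difference was -1.09 against 0.02 over all tested genes. Sele, the endothelial selectin, was the one called, with a difference of 0.03 (limma, adjusted p = 0.00345) and 0 knockout reads. Selp had a single knockout read, in ATF4 KO 1, against 4.84 expected, and its difference of -1.97 did not pass (limma, adjusted p = 0.144). Cd34 had 17 knockout reads against 63.3 expected, and its difference of -1.24 did not pass either (limma, adjusted p = 0.186). The signalling and adhesion genes called in either direction thus had 0 knockout reads, as the tested receptors did.

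The genes nearest in pattern were found by the root mean squared difference of the 4 deposited log2 values among 905 genes, over 4 libraries. Nearest to Cxcr4 were Proser2 at 0.019, Chil1 at 0.027 and Ier5 at 0.029. For Cxcr2 they were Trak2 at 0.0093, Lpgat1 at 0.039 and Ppfia4 at 0.053. Trak2, a mitochondrial transport adaptor gene, had 131 and 159 WT reads, next to the 133 and 160 of Cxcr2. After Lefty1, the nearest genes to Ackr1 were Slamf8 at 0.014 and Bard1 at 0.023. Cxcr1 had no close gene among those compared, since each of them reached a value of 1, and its nearest was Adhfe1 at 0.663. All 12 of these genes were at 0 reads in ATF4 KO, so nearness here reflects like WT read numbers.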

How the data were processed

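Each of the 4 libraries has 1 deposited log2 value per gene. HISAT2 2.2.1, featureCounts, DESeq2 and GRCm38 are named in the submitters' processing notes, without settings, and the transform is not given in the sources used here. An incomplete last line was left out. Of 4167 symbols, 98.5% matched GENCODE M21, on chromosomes 1 and 2.

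Values were inverted to whole reads through the equation of the regularized logarithm (numpy 2.4.6, numba 0.67.0), using a ridge penalty of 0.164 and at least 0.5 fitted reads. For genes with 0 knockout reads the next-best whole reads missed the deposited value by at least 4.04e-04. Of 529 genes with a knockout read, 419 were solved and 110 genes stayed without reads. Expected knockout reads are mean normalised WT reads times the summed ATF4 KO size factors.

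The design allowed for counts. As the values are logarithms, limma 3.58.1 (R 4.3.3, statmod 1.5.0) was fitted to them with a trended, robust prior and Benjamini-Hochberg adjustment over the tested genes. Both steps were run on simulated data, whose setting differs from these libraries. The limma simulation gave every library the spread of WT (SD 0.185), while the SD of ATF4 KO was 1.39. The simulation of the reads drew only on genes already solved. These runs therefore do not cover the ATF4 KO spread in limma or the unsolved genes. Libraries were grouped by their titles.

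The receptors are named throughout. From each gene list those past the threshold or among the 3 of lowest p were named, and markers were named by their role. Members and lists were chosen with earlier results of these data known. For likeness, the 3 nearest genes were named. Some listed genes are not reported here. Alternatives were other filters, no trend, a minimum difference, a replicate block, each library left out, voom on recovered reads, a lower knockout yield and the longest transcript as length.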

Additional observations from a re-analysis of the deposited data

How the results depend on the processing

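The 563 genes called became 1315 without a filter (1037 higher and 278 lower), 255 with a lowest value of 3 (15 and 240), 291 without a trend (28 and 263), 121 with a minimum difference of 1 (7 and 114) and 378 with voom on the recovered reads (257 and 121). Leaving out 1 library gave 634 to 884. Receptors called numbered 2 without a filter, which added Cxcr1, 0 without a trend and 1 with voom, and 0 to 3 with 1 library left out. With a lowest value of 3 no receptor was left to test. Ackr1 had a difference of 0.10 without a trend and did not pass (adjusted p = 0.0645). It ranged from 0.083 to 0.11 with 1 library left out. Cxcr4 ranged from 0.051 to 0.13 and Cxcr2 from -0.39 to -0.12. With voom, Cxcr2 turned to a positive difference of 0.85 (adjusted p = 0.195), since voom gives every library with 0 reads a value set by its size factor. The differences of Cxcr4 and Ackr1 were then 2.47 and 2.30, also at 0 knockout reads, with Ackr1 past the threshold and Cxcr4 short of it (limma, adjusted p = 0.0212 and 0.112).

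The labels do not say what equal replicate numbers share, and the WT and ATF4 KO replicate differences correlated at -0.076 over 1199 genes. With the replicate number as a block 510 genes and 1 receptor were called, and Ackr1 kept its call at 0.10 (limma, adjusted p = 0.0386). A yield of 93.4% in ATF4 KO lowered the expected Cxcr2 reads to 0.527, with a limit of 5.69-fold above WT. That yield rests on few genes, since 10 of the 397 with WT log2 values between 3 and 6 held 490 of 789 knockout reads. A further 226 had 0 reads, where counting error alone gives 76.2. The 93.4% therefore does not stand for a typical gene. At a lower yield the receptor limits would be looser, by an amount that was not worked out. The yield also leaves out 16 genes whose reads were not recovered, each with a knockout read. The yield over the whole range is thus unknown and may exceed this value. With the longest transcript as length, Ackr1 stood at 2.40 per kb and the other receptors moved by less than 1 SD.

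Depth limits every statement on the receptors in ATF4 KO, and 2 WT libraries limit the order of their levels.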
